A study of Mus musculus with 19 samples.

Results

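The difference between 2 drug effects is described here: the change that CCI-779 made in the brains of SCA3 mice minus the change it made in the brains of wild-type (wt) mice. It is the interaction of genotype and drug, computed as SCA3 CCI-779 minus SCA3 placebo, less wt CCI-779 minus wt placebo. All 19 arrays of the series entered it, and all 45037 probe sets that are not controls, of 45101 on the array, were its members. An interaction above 0 means that the drug effect was more positive in SCA3 than in wt mice.

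The mice were male, and brain RNA was hybridised to single-colour Affymetrix arrays. SCA3 mice carry a transgene for spinocerebellar ataxia type 3, and its promoter, line and repeat length are not given in the sources used here. Injections into the peritoneum were given 3 times a week for 6 weeks to all mice, starting at 5 weeks of age. The SCA3 mice had 5 arrays under CCI-779 at 20 mg/kg and 5 under placebo, and the wt mice had 5 under CCI-779 at 20 mg/kg and 4 under placebo. No label states that every array had its own mouse, so the p-values rest on a spread between samples that may be technical.

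CCI-779 (temsirolimus) is an ester of rapamycin. It binds the immunophilin FKBP12, and the pair inhibits mTOR complex 1 (mTORC1), a kinase complex that promotes protein and lipid synthesis and holds back autophagy. In spinocerebellar ataxia type 3 an expanded glutamine stretch in ataxin-3, a deubiquitinase, forms aggregates in neurons, and aggregated proteins of this kind are substrates of autophagy. The interaction addresses whether brains with the transgene answered the drug differently from brains without it.

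Values are log2 of the deposited intensities. The 20473 probe sets (45.5%) with a mean of at least 4 on this scale were tested, and a gene is represented by its brightest tested probe set, which gave 10454 genes. Mean intensities of the arrays lay between 434 and 463. Added hybridisation spike-ins were dimmer under CCI-779 in both genotypes: in SCA3 mice they averaged 10.55 ± 0.09 under CCI-779 and 11.36 ± 0.18 under placebo (SD, n = 5 each), and in wt mice 10.23 ± 0.26 under CCI-779 (SD, n = 5) and 11.13 ± 0.29 under placebo (SD, n = 4). The difference of these differences was 0.08, with an exact two-sided permutation p of 0.719 over 31752 regroupings (adjusted p = 0.843 over 4 measures). For the 3 prime minus 5 prime signal it was -0.09 in GAPDH (exact p = 0.843, adjusted p = 0.843) and -0.34 in actin (exact p = 0.294, adjusted p = 0.588), and for the poly-A spike-ins -0.32 (exact p = 0.163, adjusted p = 0.588). Wt CCI-779 replicate 1 stood apart, with a GAPDH 3 prime minus 5 prime signal of 0.28, against -0.44 to -0.39 in the other 4 arrays of its group, and an actin signal of 2.55, against 1.20 to 1.53. SCA3 CCI-779 replicates 2 and 5 had the lowest actin values, 0.96 and 0.88. The part of these measures in the results was not tested.

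The drug response did not differ between the genotypes for any probe set or gene at an adjusted p under 0.05. limma (moderated test, Benjamini-Hochberg adjustment) called 0 of 20473 probe sets (0%) and 0 of 10454 genes (0%), and the smallest adjusted p was 0.370. At an unadjusted p under 0.05 there were 1573 probe sets (7.68%), with 455 above 0 (2.22%) and 1118 below 0 (5.46%). Centring each array on its median gave 714 above and 629 below 0, and a second quantile normalization gave 613 and 796. Among genes, 868 had an unadjusted p under 0.05 (8.3%), with 136 above 0 (1.3%) and 732 below 0 (7%). The other 10019 tested probe sets were split more evenly, with 319 above 0 (3.18%) and 386 below 0 (3.85%). They are dimmer probe sets of a gene together with probe sets that have no single gene symbol.

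The precision sets what such a result can show. The median 95% interval of an interaction reached 0.31 to either side of its value, which is 1.24-fold. For 11803 probe sets (57.7%) the whole interval lay within 0.5 of 0, and for 18883 (92.2%) it lay within 1 of 0. Only for the remaining 1590 did the interval include an unequal response of more than 1 log2 unit. A count of 0 therefore does not show that the genotypes responded alike.

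Both drug effects were large by comparison, and they share no array. CCI-779 changed 1788 of 10454 genes in SCA3 brains (17.1%), of which 1151 rose (11%) and 637 fell (6.09%). It changed 1374 genes in wt brains (13.1%), of which 1203 rose (11.5%) and 171 fell (1.64%). Of these, 714 passed in both genotypes, 623 higher and 91 lower, with none in opposite directions. They were 39.9% of the SCA3 list and 52.0% of the wt list. Across 20473 probe sets the drug effects in SCA3 and in wt mice had a Pearson correlation of 0.67 and a Spearman correlation of 0.64, given as a description, since genes are not independent and the spike-ins were dimmer under the drug in both genotypes.

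Calls in a single genotype mostly had the same sign in the other. Of 1074 genes called in SCA3 alone, 981 (91.3%) had the same sign in wt, and of 660 called in wt alone, 600 (90.9%) had the same sign in SCA3, against 72.1% of all genes. Genes called in SCA3 had a median change of 0.39 there and of 0.28 in the same direction in wt. Genes called in wt had a median change of 0.29 in that direction in SCA3 and of 0.41 in wt itself. Of the 1734 genes called in a single genotype, 426 had an unadjusted interaction p under 0.05 by limma, beside 868 of all 10454 genes (8.3%). The 1734 were picked by a difference in calls on the same arrays, so this count is a description. None of them had an adjusted interaction p below 0.419.

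The counts of the drug effects depended on single arrays and on scaling. In probe sets 3107 were called in SCA3 (15.2%) and 2435 in wt (11.9%). With each array centred on its median, the split in probe sets was 1587 higher and 1961 lower in SCA3, against 2094 and 1013 before (10.2% and 4.95%), and 959 higher and 1163 lower in wt, against 2002 and 433 before (9.78% and 2.11%). The 714 shared genes fell to 425 without wt placebo replicate 4, to 426 without wt placebo replicate 2, which also left 1 gene called in opposite directions, and to 469 without wt placebo replicate 3. With a spike-in covariate no drug effect passed in either genotype, and the interaction still had 0 calls. The spike-ins of treated and placebo arrays did not overlap, at 10.44 to 10.65 and 11.19 to 11.60 in SCA3 mice. In wt mice they lay at 9.97 to 10.65 and 10.88 to 11.49. Spike-in level and drug went together, so this fit separates them poorly.

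**Figure D1:**
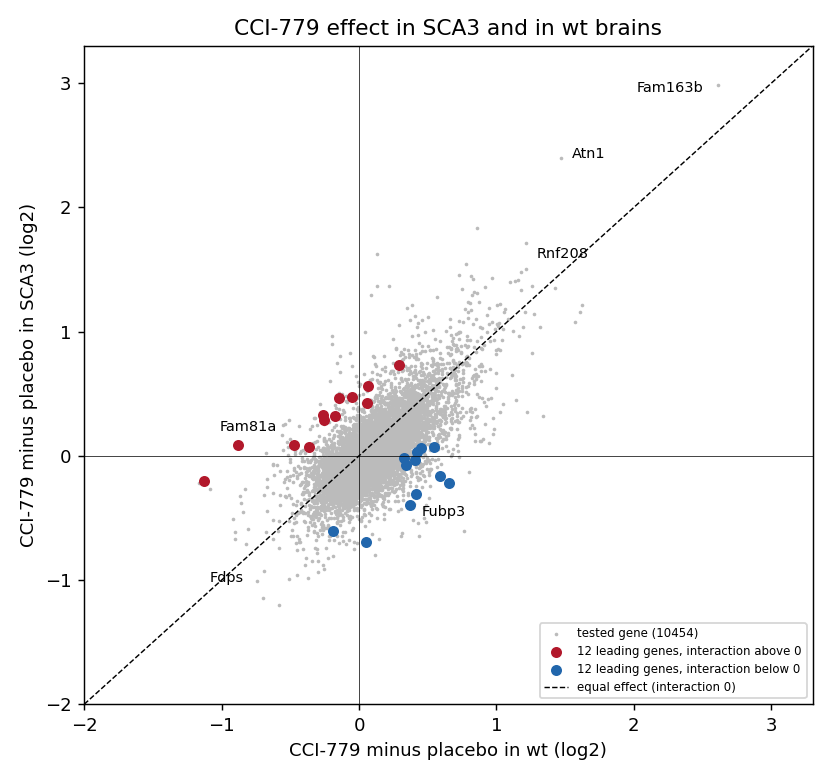
CCI-779 effect in SCA3 mice (vertical axis, log2) against that in wt mice (horizontal axis, log2) for 10454 tested genes, each a grey point, with the genes leading the interaction in red (above 0) and blue (below 0). The dashed line marks equal effects; Fam163b and Atn1 lie far out on both axes, and the 24 leading genes lie off the line on either side.

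The genes with the strongest shared responses had no called interaction. Fam163b had log2 values of 7.49, 9.32, 7.20, 7.82 and 8.79 in SCA3 CCI-779 and 4.99, 4.95, 5.53, 5.19 and 5.02 in SCA3 placebo arrays. It had 8.59, 6.61, 7.38, 7.12 and 6.07 in wt CCI-779 and 4.46, 5.01, 4.98 and 3.73 in wt placebo arrays. The drug groups lay above the placebo groups with no overlap in both genotypes, and SCA3 CCI-779 replicates 2 and 5 were the highest of all. Fam163b rose by 2.99 in SCA3 and by 2.61 in wt mice, and the interaction was 0.38 with a 95% interval of -0.94 to 1.70 (adjusted p = 0.888). The interaction turned to -0.24 with SCA3 CCI-779 replicates 2 and 5 left out.

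Atn1, the gene whose glutamine repeat expands in dentatorubral-pallidoluysian atrophy, also had no called interaction. Its values were 7.75, 9.47, 7.52, 7.97 and 9.57 in SCA3 CCI-779 and 6.07, 5.85, 6.37, 6.03 and 5.95 in SCA3 placebo arrays. In wt mice they were 7.89, 7.19, 7.76, 7.98 and 6.91 under CCI-779 and 6.02, 6.05, 6.22 and 6.01 under placebo. The same 2 arrays, SCA3 CCI-779 replicates 2 and 5, lay more than a log2 unit above the rest, and the drug and placebo groups did not overlap. Atn1 rose by 2.40 in SCA3 and by 1.47 in wt mice, with an interaction of 0.93 and a 95% interval of -0.10 to 1.97 (adjusted p = 0.684). Without those 2 arrays the Atn1 interaction was 0.22. Rnf208, a RING finger protein, rose by 1.71 in SCA3 and by 1.21 in wt mice (interaction 0.50, adjusted p = 0.777). Zfp385a, a zinc finger protein that binds RNA, rose by 1.35 and by 1.42 (interaction -0.07, adjusted p = 0.971). Zfp316, a zinc finger gene, rose by 1.21 in SCA3 and by 1.62 in wt mice (interaction -0.41, adjusted p = 0.841), and 5 single arrays each ended its call in SCA3. With single arrays left out the Zfp316 interaction lay between -0.90, without wt placebo replicate 1, and -0.15, without wt placebo replicate 3, and a pseudocount of 16 gave -0.05.

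Among genes that fell in both genotypes, Fdps, an enzyme of the mevalonate pathway that yields farnesyl diphosphate, changed by -0.93 in SCA3 and by -0.69 in wt mice. Its interaction was -0.24 with a 95% interval of -0.76 to 0.29 (adjusted p = 0.821), and it was -0.11 without SCA3 placebo replicate 5 and -0.13 without wt placebo replicate 3. The wt call of Fdps was lost without wt CCI-779 replicate 1 or wt placebo replicate 4 (adjusted p up to 0.0772). Camkk2, a calcium-dependent kinase that activates AMPK, changed by -0.52 in SCA3 and by -0.58 in wt mice. Its interaction was 0.06 with a 95% interval of -0.17 to 0.29 (adjusted p = 0.899), and the mean of its probe sets gave 0.015 for the SCA3 change. Of its other 2 probe sets, 1 rose by 0.41 in SCA3 mice (adjusted p = 0.00932) and differed by 0.16 in wt mice, and the other differed by 0.15 in SCA3 and by 0.13 in wt mice. Ninj1, an adhesion protein that ruptures the membrane of dying cells, changed by -0.61 and by -0.67 (interaction 0.06, adjusted p = 0.946). P2ry12, the ADP receptor of resting microglia, changed by -0.52 in SCA3 and by -0.62 in wt mice (interaction 0.11, adjusted p = 0.914), and Arhgef33 by -0.71 and by -0.82 (interaction 0.11, adjusted p = 0.931). Single arrays ended both calls of these last 2 genes, with adjusted p up to 0.0797 in SCA3 and 0.0803 in wt for P2ry12, and up to 0.0622 in SCA3 and 0.0690 in wt for Arhgef33.

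The 24 genes that led the interaction are the 12 with the smallest p in each direction. None passed, with adjusted p between 0.419 and 0.537 and sizes between 0.35 and 0.97 log2 units. They were picked for this contrast, so their values are a description. In 16 of the 24 the drug effects had opposite signs in the genotypes, while 72.1% of all genes had the same sign in both. The drug effect itself passed in SCA3 for 10 of the 24, beside 17.1% of all genes. In wt it passed for 13, beside 13.1%, with Foxp4 counted in both. Of these 23 calls 17 held whichever single array was left out, and 6 were ended by some array. The group whose mean lay farthest from the other 3 was SCA3 CCI-779 for 6 genes, SCA3 placebo for 5, wt CCI-779 for 9 and wt placebo for 4.

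**Figure D2:**
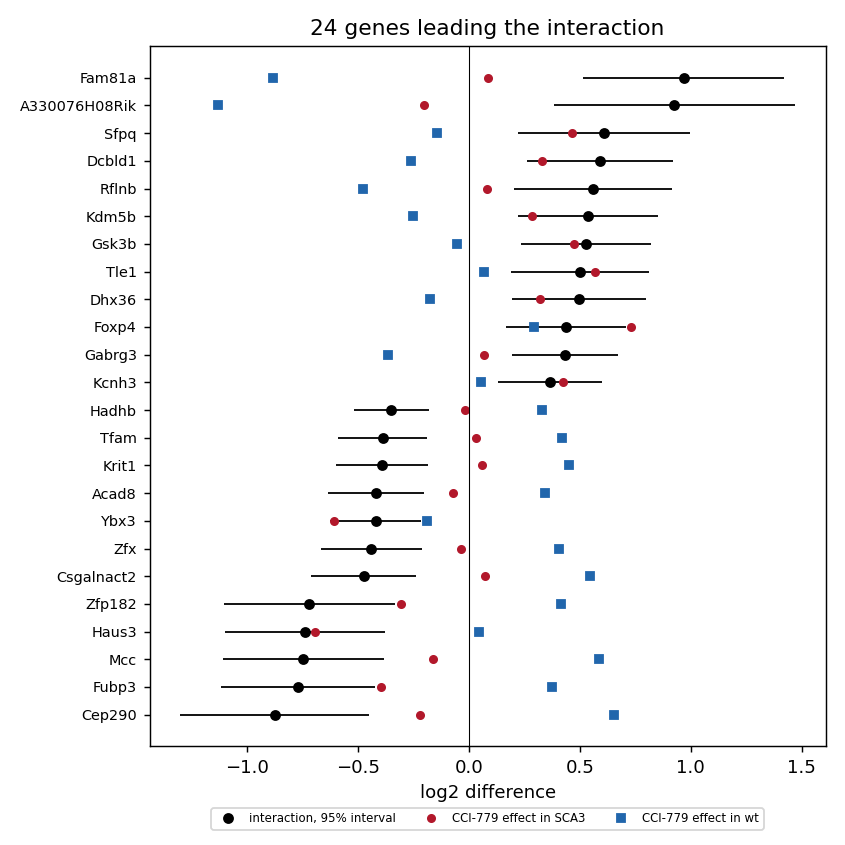
Interaction with its 95% interval (black) and the CCI-779 effect in SCA3 (red circles) and in wt (blue squares), in log2 units, for the 24 leading genes. In most genes above 0 the wt square lies left of 0 or near it, and in most genes below 0 it lies right of 0 while the red circle lies near 0 or left of it.

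Fubp3 encodes a single-stranded nucleic acid-binding protein related to the MYC far-upstream element binding protein. Its log2 values were 8.41, 7.88, 8.43, 8.52 and 8.36 in SCA3 CCI-779 and 8.88, 8.75, 8.66, 8.64 and 8.66 in SCA3 placebo arrays. They were 9.32, 8.96, 8.97, 9.09 and 9.18 in wt CCI-779 and 8.75, 9.01, 8.53 and 8.63 in wt placebo arrays. All SCA3 CCI-779 arrays were below all others, and 3 of the 5 wt CCI-779 arrays lay above every placebo array. Fubp3 fell by 0.40 under CCI-779 in SCA3 mice (adjusted p = 0.0258) and differed by 0.37 in wt mice (adjusted p = 0.0505), giving an interaction of -0.77 ± 0.16 (SE; 95% interval -1.12 to -0.42; adjusted p = 0.419). The SCA3 call was lost without replicate 2 of the treated or replicate 1 or 2 of the placebo SCA3 arrays, with adjusted p up to 0.0633.

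Ybx3, a cold shock protein that binds RNA and represses translation, fell in SCA3 mice. Its values were 10.09, 9.99, 10.09, 10.04 and 10.01 in SCA3 CCI-779 and 10.58, 10.76, 10.56, 10.71 and 10.64 in SCA3 placebo arrays. In wt mice they were 10.58, 10.48, 10.51, 10.62 and 10.52 under CCI-779 and 10.72, 10.80, 10.49 and 10.90 under placebo. The SCA3 CCI-779 group stood below all other arrays, while the wt groups overlapped. Ybx3 fell by 0.61 in SCA3 mice (adjusted p = 8.71e-05) and differed by -0.19 in wt mice (adjusted p = 0.0894), with an interaction of -0.42 ± 0.10 (SE; adjusted p = 0.419). A dimmer probe set of Ybx3 gave an interaction of -0.11 (adjusted p = 0.906) and differed by 0.01 in SCA3 mice (adjusted p = 0.965).

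Under CCI-779, SCA3 brains had lower signals than wt brains in the probe sets that represent Fubp3 and Ybx3. The differences were 0.78 (adjusted p = 0.0207) and 0.50 (adjusted p = 0.0140) log2 units by limma. Fubp3 and Ybx3 were the 2 genes of 10454 called in that comparison (0.0191%). The dimmer Ybx3 probe set averaged 7.16 in SCA3 CCI-779 and 7.15 in wt CCI-779 arrays. Leaving out replicate 5 of either treated group ended the Ybx3 call, and 4 single arrays each ended the Fubp3 call, with adjusted p up to 0.0706 for both genes. Under placebo no gene passed between SCA3 and wt brains (0%), by limma, with 556 genes at an unadjusted p under 0.05 (5.32%). Among all probe sets 2 passed in that comparison (0.00977%), and neither was the brightest of its gene. A probe set of Arglu1 was lower in SCA3 by 1.21 log2 units (adjusted p = 0.0320) and one of Slc8a1 by 0.77 (adjusted p = 0.0432), calls that 12 and 14 single arrays each ended (adjusted p up to 0.160 and 0.204). Both comparisons share their arrays with the interaction and are no separate evidence.

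Haus3, a subunit of the augmin complex that branches microtubules, also had its extreme group in treated SCA3 mice. Its values were 5.49, 6.12, 6.04, 6.06 and 6.12 in SCA3 CCI-779 and 6.56, 6.61, 6.70, 6.51 and 6.90 in SCA3 placebo arrays. They were 6.78, 6.47, 6.51, 6.58 and 6.51 in wt CCI-779 and 6.76, 6.52, 6.30 and 6.51 in wt placebo arrays. All SCA3 CCI-779 arrays were below every other array, and replicate 1 lay lowest. Haus3 fell by 0.69 in SCA3 mice (adjusted p = 0.00134) and differed by 0.05 in wt mice (adjusted p = 0.832), with an interaction of -0.74 ± 0.17 (SE; adjusted p = 0.419).

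In Mcc and Cep290 the extreme group was wt CCI-779. Mcc, named for its mutation in colorectal cancers, had 6.16, 6.11, 6.17, 6.34 and 6.16 in SCA3 CCI-779 and 6.28, 6.48, 6.26, 6.18 and 6.56 in SCA3 placebo arrays, against 7.00, 6.44, 6.84, 6.77 and 6.63 in wt CCI-779 and 6.36, 6.41, 5.79 and 6.04 in wt placebo arrays. The wt groups did not overlap and the SCA3 groups did. Mcc rose by 0.59 in wt mice (adjusted p = 0.00741) and differed by -0.16 in SCA3 mice (adjusted p = 0.386; interaction -0.75 ± 0.17, SE, adjusted p = 0.419). Cep290, a protein of the ciliary transition zone, rose by 0.66 in wt mice (adjusted p = 0.0097) and differed by -0.22 in SCA3 mice (interaction -0.87 ± 0.20, SE, adjusted p = 0.419). Its probe set was dim, with group means of 4.66 in SCA3 CCI-779, 4.88 in SCA3 placebo, 5.32 in wt CCI-779 and 4.67 in wt placebo, and 1 wt CCI-779 array at 5.94 stood above the other 4, at 5.12 to 5.21.

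In their brightest probe sets Hadhb, Tfam and Acad8 each rose in wt mice. Hadhb, a subunit of the trifunctional protein of fatty acid oxidation, had 12.48, 12.50, 12.42, 12.45 and 12.50 in SCA3 CCI-779 and 12.39, 12.50, 12.50, 12.52 and 12.53 in SCA3 placebo arrays. It had 12.83, 12.67, 12.64, 12.72 and 12.60 in wt CCI-779 and 12.26, 12.43, 12.29 and 12.48 in wt placebo arrays. The treated wt arrays were above all others, and the SCA3 groups overlapped. Hadhb rose by 0.33 in wt mice (adjusted p = 0.00291) with an interaction of -0.35 ± 0.08 (SE, adjusted p = 0.419). The dimmer Hadhb probe set differed by 0.11 in wt mice (adjusted p = 0.430) and gave an interaction of -0.16. Tfam, which packages and transcribes mitochondrial DNA, rose by 0.42 in wt and differed by 0.03 in SCA3 mice (interaction -0.39, adjusted p = 0.517). The dimmer Tfam probe set differed by 0.13 in wt mice (adjusted p = 0.380) and gave an interaction of -0.26. Acad8, the isobutyryl-CoA dehydrogenase of valine breakdown, rose by 0.34 in wt and differed by -0.07 in SCA3 mice (interaction -0.42, adjusted p = 0.517), though its dimmer probe set gave 0.09.

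Csgalnact2, which starts chondroitin sulfate chains, rose by 0.55 in wt mice (adjusted p = 0.00102) and differed by 0.07 in SCA3 mice, with an interaction of -0.47 (adjusted p = 0.419). Krit1, mutated in cerebral cavernous malformations, rose by 0.45 in wt and differed by 0.06 in SCA3 mice (interaction -0.39, adjusted p = 0.518). Its other 2 probe sets gave interactions of 0.15 and -0.30, and the mean of the Krit1 probe sets gave -0.18. The X-linked transcription factor gene Zfx rose by 0.41 in wt and differed by -0.03 in SCA3 mice (interaction -0.44, adjusted p = 0.517). The other Zfx probe set differed by 0.14 in wt mice (adjusted p = 0.275) and gave an interaction of -0.16. Zfp182, a zinc finger gene, differed by -0.31 in SCA3 and by 0.41 in wt mice, neither past the threshold (interaction -0.72, adjusted p = 0.518).

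**Figure D3:**
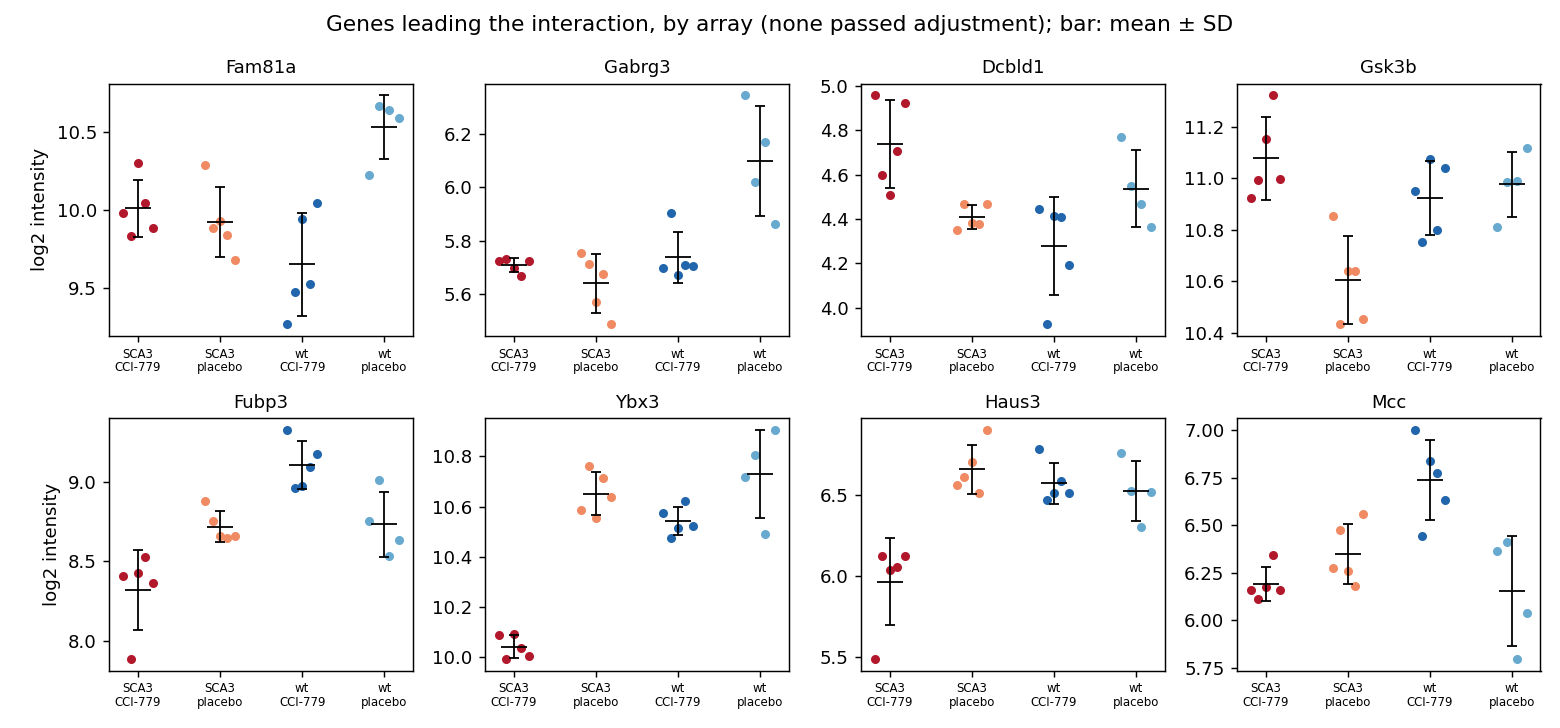
Log2 intensity on each of the 19 arrays for 8 of the genes leading the interaction, by group from SCA3 CCI-779 to wt placebo, with the mean and SD as a bar. The top row has interactions above 0 and the bottom row below 0; in Fubp3, Ybx3 and Haus3 the SCA3 CCI-779 arrays lie below all others, and in Gsk3b the SCA3 placebo arrays lie lowest as a group.

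Above 0, Fam81a had the largest interaction of the leading genes. It encodes a coiled-coil protein of the postsynaptic density. Its values were 9.98, 9.83, 10.30, 10.04 and 9.89 in SCA3 CCI-779 and 10.29, 9.89, 9.93, 9.84 and 9.68 in SCA3 placebo arrays. They were 9.26, 9.48, 9.94, 9.53 and 10.05 in wt CCI-779 and 10.23, 10.67, 10.65 and 10.59 in wt placebo arrays. The wt groups did not overlap, and the SCA3 groups lay on top of each other. Fam81a fell by 0.88 in wt mice (adjusted p = 0.00284) and differed by 0.09 in SCA3 mice (adjusted p = 0.739), with an interaction of 0.97 ± 0.21 (SE; 95% interval 0.52 to 1.42; adjusted p = 0.419).

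Gsk3b, the kinase that phosphorylates glycogen synthase, beta-catenin and tau and is itself inhibited by AKT, differed the other way round. Its values were 10.92, 10.99, 11.15, 11.32 and 11.00 in SCA3 CCI-779 and 10.85, 10.43, 10.64, 10.64 and 10.45 in SCA3 placebo arrays. They were 10.95, 10.75, 11.08, 10.80 and 11.04 in wt CCI-779 and 10.81, 10.98, 10.99 and 11.12 in wt placebo arrays. The SCA3 groups did not overlap, and the treated SCA3 arrays lay in the range of the wt arrays or just above it. Gsk3b rose by 0.47 in SCA3 mice (adjusted p = 0.00378) and differed by -0.05 in wt mice (adjusted p = 0.766), with an interaction of 0.53 ± 0.14 (SE; adjusted p = 0.518). Its 6 tested probe sets did not move together: a second one gave 0.44 (adjusted p = 0.593), and the other 4 lay between -0.17 and 0.06.

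The transcription corepressor gene Tle1 rose by 0.57 in SCA3 mice (adjusted p = 0.00183) and differed by 0.07 in wt mice (interaction 0.50, adjusted p = 0.526), but its second probe set gave -0.23. Kcnh3, a voltage-gated potassium channel of forebrain neurons, rose by 0.42 in SCA3 and differed by 0.06 in wt mice (interaction 0.37, adjusted p = 0.537). Dimmer Kcnh3 probe sets gave interactions of 0.43 and -0.05. Foxp4, a forkhead transcription factor, rose in both, by 0.73 in SCA3 (adjusted p = 0.000174) and by 0.29 in wt mice (adjusted p = 0.0495), and 14 single arrays each ended the wt call. Its SCA3 CCI-779 arrays, 6.32 to 6.73, were above all wt CCI-779 arrays, 5.84 to 6.21 (interaction 0.44, adjusted p = 0.526). Dcbld1, a transmembrane protein, and Dhx36, a helicase that unwinds G-quadruplexes, rose in SCA3 mice by 0.33 (adjusted p = 0.0456) and 0.32 (adjusted p = 0.0370), calls that 14 and 8 single arrays ended, with interactions of 0.59 and 0.50 (adjusted p = 0.518 for each). The other 2 probe sets of Dhx36 gave interactions of -0.15 and -0.09, and the first of them rose by 0.28 in SCA3 (adjusted p = 0.0359) and by 0.43 in wt mice (adjusted p = 0.00708). The mean of the Dhx36 probe sets gave an interaction of 0.086.

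Gabrg3, the gamma-3 subunit of the GABA-A receptor, fell by 0.36 in wt mice (adjusted p = 0.0104) and differed by 0.07 in SCA3 mice. Its placebo arrays did not overlap between genotypes, at 5.49 to 5.76 in SCA3 and 5.86 to 6.35 in wt mice (interaction 0.43, adjusted p = 0.518). The unnamed transcript A330076H08Rik fell by 1.13 in wt mice (adjusted p = 0.00217) and differed by -0.20 in SCA3 mice, with an interaction of 0.92 in its brighter probe set (adjusted p = 0.518) and 0.52 in the other. Rflnb, a filamin-binding protein, fell by 0.48 in wt mice (adjusted p = 0.0197), a call lost without wt placebo replicate 2 (adjusted p = 0.0772), and its probe sets disagreed, with interactions of 0.56 and -0.30. The histone H3K4 demethylase gene Kdm5b differed by 0.28 in SCA3 and by -0.25 in wt mice, neither past the threshold (interaction 0.54, adjusted p = 0.518). Dimmer Kdm5b probe sets gave interactions of 0.09 and -0.0034.

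The order by probe set rather than by gene had other names at its top. Of the 24 probe sets with the smallest interaction p, 7 represented their gene, 16 were dimmer probe sets of a named gene and 1 had no single gene symbol. These names were chosen after their values were seen, and none passed. Of the 16, 15 were above 0, with interactions from -0.73 to 1.64, while the brightest probe sets of the same genes gave -0.30 to 0.61 and had the same sign in 7 of 16.

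Rc3h2, which encodes the RNA-binding ubiquitin ligase roquin-2, had the largest of these. Its dim probe set gave 6.97, 7.12, 7.43, 6.74 and 7.28 in SCA3 CCI-779 and 7.19, 6.34, 6.48, 6.00 and 6.45 in SCA3 placebo arrays. It gave 6.44, 6.15, 7.07, 6.38 and 6.96 in wt CCI-779 and 7.21, 7.99, 7.54 and 7.74 in wt placebo arrays. The wt placebo arrays lay above all SCA3 placebo arrays, and the means of the treated groups lay between. That probe set fell by 1.02 in wt mice (adjusted p = 0.00951), and its interaction of 1.64 contrasts with -0.19 for the brightest probe set of Rc3h2.

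Slc8a1, the sodium-calcium exchanger NCX1, held the probe set that was called for the drug in both genotypes in opposite directions. Its values were 9.26, 9.22, 9.48, 9.63 and 9.35 in SCA3 CCI-779 and 9.21, 9.04, 8.78, 8.94 and 8.79 in SCA3 placebo arrays. They were 9.44, 9.01, 9.45, 9.20 and 9.53 in wt CCI-779 and 9.54, 9.84, 9.77 and 9.71 in wt placebo arrays. The means of both treated groups lay between those of the placebo groups, which were low in SCA3 and high in wt mice. The probe set rose by 0.44 in SCA3 (adjusted p = 0.0140) and fell by 0.39 in wt mice (adjusted p = 0.0381), with an interaction of 0.83 and a 95% interval of 0.49 to 1.17 (adjusted p = 0.370). The wt call was ended by 5 single arrays, and the brightest Slc8a1 probe set gave an interaction of -0.19.

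The same layout, with the means of the treated groups between a low SCA3 placebo and a high wt placebo group, was seen in dimmer probe sets of Slc1a2, Sfpq, Ddx6 and Atp2b1. Slc1a2 is the main glial glutamate transporter, Sfpq a splicing factor of paraspeckles, Ddx6 an RNA helicase of P-bodies and Atp2b1 a calcium pump of the plasma membrane. For Slc1a2 the means in SCA3 mice were 8.77 ± 0.33 under CCI-779 and 7.94 ± 0.24 under placebo (SD, n = 5 each), and in wt mice 8.37 ± 0.28 under CCI-779 (SD, n = 5) and 8.85 ± 0.27 under placebo (SD, n = 4), an interaction of 1.30 against 0.10 for its brightest probe set. For Sfpq the dimmer probe set gave 1.21 and the brightest 0.61 (adjusted p = 0.536), and the 5 tested probe sets ranged from -0.09 to 1.21. For Ddx6 they gave 0.87 and 0.02, and for Atp2b1 0.63 and 0.04. The brightest Sfpq probe set rose by 0.47 in SCA3 mice (adjusted p = 0.0195), a call lost without replicate 2 or 5 of the treated or replicate 4 of the placebo SCA3 arrays (adjusted p up to 0.0578).

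Arglu1, an arginine-rich splicing coactivator, and Stox2, a winged-helix protein, show 2 further layouts. A dim Arglu1 probe set stood at 7.28 ± 0.25 (SD, n = 4) in wt placebo arrays alone, with 6.30 ± 0.24 in SCA3 CCI-779, 6.07 ± 0.24 in SCA3 placebo and 6.37 ± 0.33 in wt CCI-779 (SD, n = 5 each). It fell by 0.91 in wt mice (adjusted p = 0.00370), with an interaction of 1.15 against 0.25 for the brightest Arglu1 probe set. The Stox2 probe set rose in both genotypes, by 0.70 in SCA3 and by 0.27 in wt mice, each with no overlap between drug and placebo arrays, and its interaction was 0.43 against -0.10 for the brightest probe set. In Chrna4, a nicotinic receptor subunit, and Alkbh5, an RNA m6A demethylase, the dimmer probe sets rose in SCA3 mice by 0.59 and 0.95. The treated SCA3 arrays lay above the wt CCI-779 arrays without overlap. The SCA3 placebo arrays lay below the wt placebo arrays, also without overlap. Placebo means in SCA3 and wt mice were 5.57 and 5.82 for Chrna4 and 5.48 and 6.18 for Alkbh5. The interactions were 0.66 and 1.22, against -0.02 and -0.09 for the brightest probe sets.

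**Figure D4:**
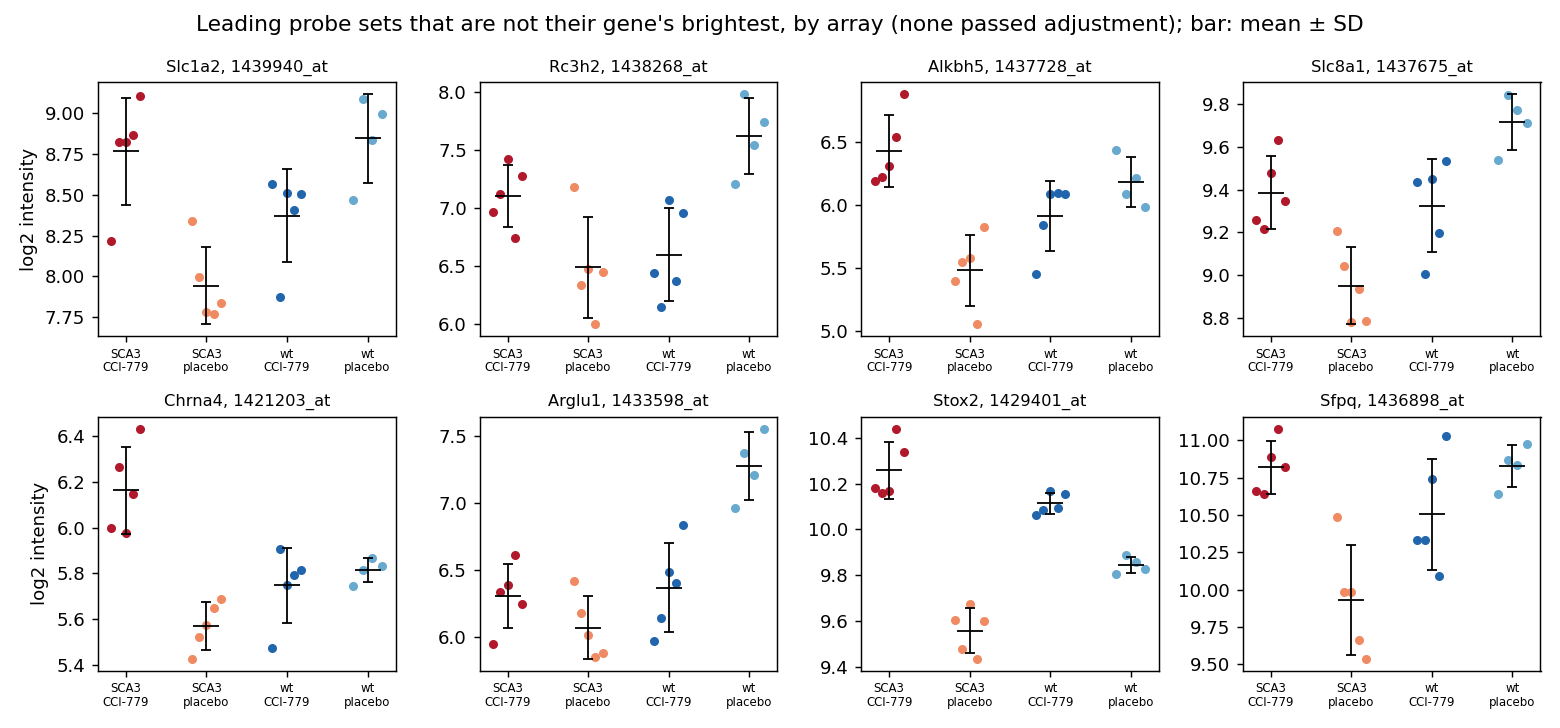
Log2 intensity on each of the 19 arrays for 8 leading probe sets that are not the brightest of their gene, by group from SCA3 CCI-779 to wt placebo, with the mean and SD as a bar. In Slc1a2, Slc8a1 and Sfpq the SCA3 placebo arrays lie low and the wt placebo arrays high, in Arglu1 the wt placebo arrays stand above the other groups, and in Stox2 both treated groups lie above their placebo groups.

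The genes of the study's own question showed no called interaction. Atxn3, the mouse ataxin-3 gene, had 8.61, 8.41, 8.38, 8.48 and 8.13 in SCA3 CCI-779 and 8.41, 8.05, 8.07, 8.06 and 8.34 in SCA3 placebo arrays. It had 8.96, 8.71, 8.60, 8.89 and 8.77 in wt CCI-779 and 8.41, 8.32, 8.31 and 8.25 in wt placebo arrays. The wt groups did not overlap and the SCA3 groups did. Atxn3 rose by 0.47 in wt mice (adjusted p = 0.00776) and differed by 0.22 in SCA3 mice (adjusted p = 0.130), and the interaction of -0.25 ± 0.14 (SE) had a 95% interval of -0.54 to 0.04 (adjusted p = 0.689). Whether this probe set also detects the transgene was not tested.

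Prnp, the prion protein gene, was bright on all arrays, with means in SCA3 mice of 13.94 ± 0.07 under CCI-779 and 14.06 ± 0.07 under placebo (SD, n = 5 each), and in wt mice of 13.88 ± 0.05 under CCI-779 (SD, n = 5) and 14.06 ± 0.06 under placebo (SD, n = 4). Drug and placebo arrays did not overlap in either genotype. The interaction was 0.05, and its 95% interval of -0.10 to 0.20 left little room in this probe set (adjusted p = 0.868). By limma the change of -0.13 in SCA3 mice did not pass (adjusted p = 0.0963). That of -0.18 in wt mice did (adjusted p = 0.0390), and 7 single arrays each ended the call. The dimmer Prnp probe set differed by -0.07 in SCA3 and by -0.21 in wt mice, neither past the threshold. Its interaction was less precise, at 0.14 ± 0.14 (SE; adjusted p = 0.808). Usp15, a deubiquitinase, gave 0.05 with a 95% interval of -0.29 to 0.38 (adjusted p = 0.947), and its 5 tested probe sets ranged from -0.04 to 0.43.

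Of 27 gene lists, none held a member with a called interaction. The median interaction over all 10454 genes was -0.07, with 7052 below 0, so lists are read beside that. In bulk tissue fewer cells of a type and less RNA per cell cannot be told apart. The lowest list medians were -0.32 for choroid plexus markers, -0.23 for sterol synthesis, -0.19 for myelin and oligodendrocytes, -0.19 for cerebellar neurons and -0.18 for fatty acid synthesis, and the highest was 0.06 for cytosolic ribosomal proteins.

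**Figure D5:**
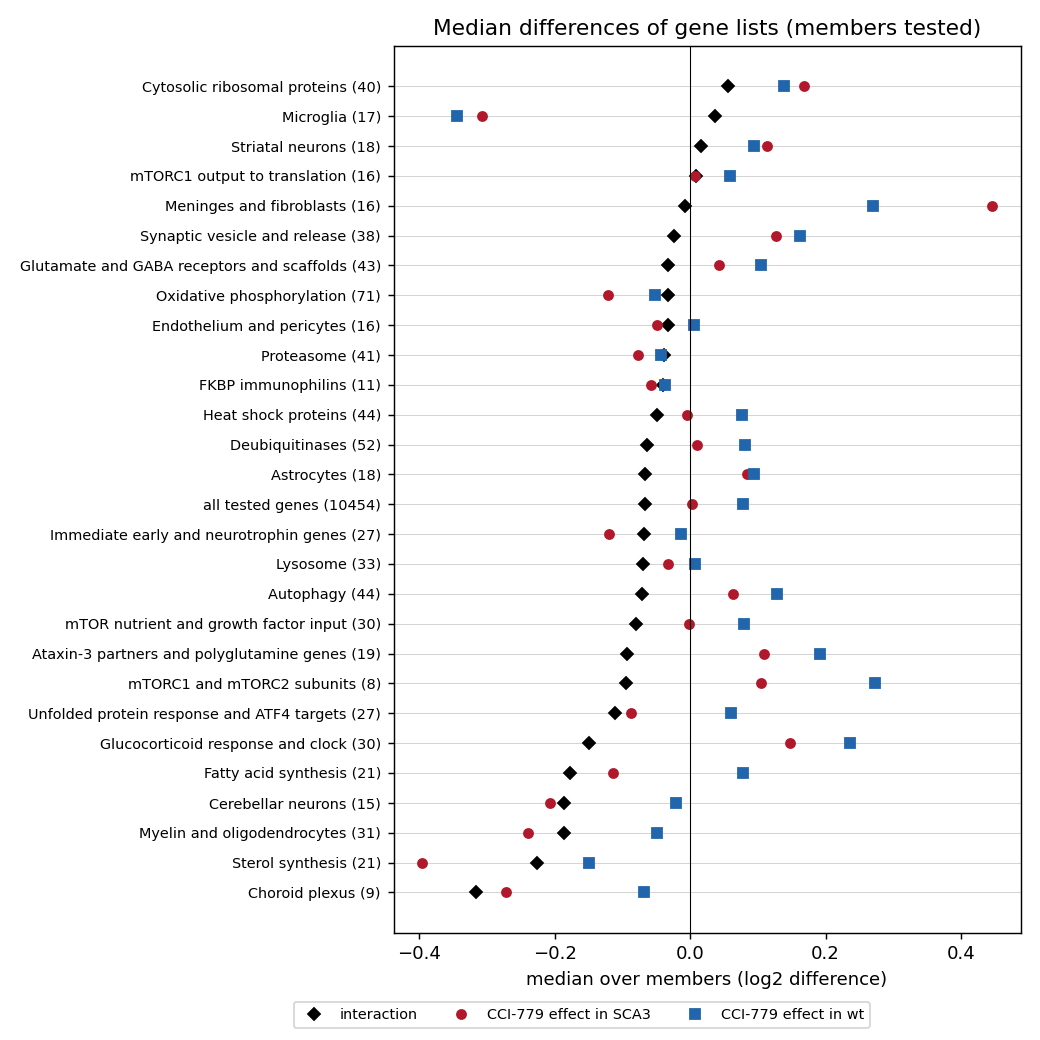
Median over the tested members of each list (number in brackets) of the interaction (black), the CCI-779 effect in SCA3 (red circles) and the CCI-779 effect in wt (blue squares), in log2 units, ordered by interaction. All tested genes lie at -0.07; choroid plexus, sterol synthesis, myelin, cerebellar neurons and fatty acid synthesis lie lowest and ribosomal proteins highest.

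Several genes of sterol synthesis, the pathway that makes cholesterol, fell in SCA3 brains, and no member of the list had a called interaction. Of 21 tested members, 12 fell and 2 rose in SCA3 mice (background 6.09% and 11%), and 2 fell and 1 rose in wt mice (background 1.64% and 11.5%). The median change was -0.40 in SCA3 and -0.15 in wt mice, and 17 of 21 interactions were below 0. At an unadjusted p under 0.05 there were 4 members below 0 and none above by limma, beside 7% and 1.3% of all genes. None passed adjustment. Without SCA3 placebo replicate 4 the members that fell in SCA3 numbered 8, and without SCA3 CCI-779 replicates 2 and 5 they numbered 7. In wt none fell without wt placebo replicate 4 and 4 fell without wt CCI-779 replicate 5. The list median of the interaction stayed between -0.34 and -0.13 under all 34 alternatives.

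Sqle, squalene epoxidase, led them. Its values were 8.37, 8.17, 8.47, 8.75 and 8.18 in SCA3 CCI-779 and 8.95, 8.57, 9.43, 9.28 and 9.24 in SCA3 placebo arrays. They were 8.89, 8.59, 8.66, 8.64 and 8.62 in wt CCI-779 and 8.65, 8.65, 8.35 and 9.11 in wt placebo arrays. SCA3 placebo replicates 3, 4 and 5 were the 3 highest of all arrays, and the wt groups overlapped. Sqle fell by 0.70 in SCA3 mice (adjusted p = 0.00745) and differed by -0.01 in wt mice (adjusted p = 0.968), with an interaction of -0.69 and a 95% interval of -1.18 to -0.21 (adjusted p = 0.557).

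Nsdhl and Cyp51, which remove methyl groups from lanosterol on the way to cholesterol, had the same layout. Nsdhl had 8.07, 7.99, 8.11, 8.33 and 8.12 in SCA3 CCI-779 and 8.75, 8.55, 9.07, 9.02 and 9.12 in SCA3 placebo arrays, against 8.49, 8.18, 8.48, 8.33 and 8.33 in wt CCI-779 and 8.75, 8.55, 8.40 and 8.97 in wt placebo arrays. The SCA3 groups were fully apart, and 1 wt placebo array lay among the treated wt arrays. Nsdhl fell by 0.78 in SCA3 mice (adjusted p = 0.000598) and differed by -0.30 in wt mice (adjusted p = 0.112; interaction -0.48, adjusted p = 0.582). Cyp51 fell by 0.68 in SCA3 mice (adjusted p = 0.00399) and differed by -0.22 in wt mice (adjusted p = 0.341; interaction -0.46, adjusted p = 0.636).

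Sterol genes are switched on together by SREBP2, which acts with the factor NF-Y, a complex that binds CCAAT boxes. The sterol genes with the smallest interaction p were Sqle, Nsdhl and Cyp51. The promoters of Cyp51 and Nsdhl are shown, since no promoter sequence of Sqle was available. They run from 250 bases before to 50 bases after the gene's start (RefSeq, GRCm38.p6), at chr5:4104648-4104947 on the minus strand for Cyp51 and chrX:72918271-72918570 on the plus strand for Nsdhl, written in the direction of the gene with CCAAT on either strand (CCAAT or ATTGG) in capitals.
Cyp51: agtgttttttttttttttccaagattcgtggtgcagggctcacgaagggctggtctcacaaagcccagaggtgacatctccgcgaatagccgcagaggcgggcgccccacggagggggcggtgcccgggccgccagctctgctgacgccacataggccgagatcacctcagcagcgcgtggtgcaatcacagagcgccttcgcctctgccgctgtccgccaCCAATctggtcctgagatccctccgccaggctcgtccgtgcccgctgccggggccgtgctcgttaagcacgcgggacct
Nsdhl: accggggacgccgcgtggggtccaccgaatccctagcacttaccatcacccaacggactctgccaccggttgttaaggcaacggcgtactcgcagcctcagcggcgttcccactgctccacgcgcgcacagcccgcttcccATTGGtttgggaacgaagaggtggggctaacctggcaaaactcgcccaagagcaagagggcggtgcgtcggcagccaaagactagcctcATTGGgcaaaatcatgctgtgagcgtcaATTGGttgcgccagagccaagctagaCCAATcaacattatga
Cyp51 holds 1 such pentamer and Nsdhl 4, 3 of them reading ATTGG. A pentamer of this kind was found in 17 of 25 promoters of 19 matched sterol genes (68.0%), against 12289 of 32851 promoters in the table (37.4%). A match of 5 letters is a description and not a site.

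Fatty acid synthesis and myelin were the other lipid-rich lists below the median of all genes. Of 21 tested genes of fatty acid synthesis, 19 had an interaction below 0, beside 7052 of all 10454 genes. By limma 7 had an unadjusted p under 0.05, all below 0, beside 7% of all genes below 0 and 1.3% above. The list median was -0.18 (-0.24 to -0.12 under the 34 alternatives). Elovl2, which elongates polyunsaturated fatty acids, had group means on opposite sides: the drug effect was -0.31 in SCA3 and 0.35 in wt mice, neither past the threshold (interaction -0.67, adjusted p = 0.518). The list of 31 myelin and oligodendrocyte genes had 11 that fell in SCA3 mice, beside 6.09% of all genes. In wt mice 1 fell and 1 rose, beside 1.64% and 11.5% of all genes. The median interaction was -0.19, with 25 below 0.

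Olig1, a transcription factor of oligodendrocytes, had 11.44, 11.39, 11.60, 11.54 and 11.34 in SCA3 CCI-779 and 11.74, 11.77, 11.91, 11.88 and 11.96 in SCA3 placebo arrays. It had 11.52, 11.71, 11.78, 11.62 and 11.62 in wt CCI-779 and 11.64, 11.75, 11.63 and 11.80 in wt placebo arrays. The SCA3 groups were apart and the wt groups overlapped. Olig1 fell by 0.39 in SCA3 mice (adjusted p = 0.00135) and differed by -0.06 in wt mice (adjusted p = 0.613; interaction -0.33, adjusted p = 0.518). Mal, a myelin proteolipid, fell by 0.70 in SCA3 and differed by -0.15 in wt mice (interaction -0.55, adjusted p = 0.557).

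All 9 tested choroid plexus markers and all 15 cerebellar neuron markers had interactions below 0, with no unadjusted p under 0.05 in either list by limma. The mean level of the choroid plexus list ranged over 6.70 to 6.95 in SCA3 CCI-779, 6.98 to 7.27 in SCA3 placebo, 6.64 to 7.16 in wt CCI-779 and 6.67 to 7.36 in wt placebo arrays. That of the cerebellar list ranged over 10.45 to 10.89, 10.73 to 11.09, 10.22 to 10.97 and 9.89 to 11.07 in the same groups, with wt placebo replicate 3 the lowest array. Their part in the interactions was not tested. Microglial markers had a median interaction of 0.04 over 17 genes, of which 6 fell in SCA3 mice, beside 6.09% of all genes, and 4 in wt mice (1 without wt placebo replicate 2 or 4), beside 1.64%. Astrocyte markers (18 tested) had -0.07, endothelial and pericyte markers (16) -0.03, and meningeal markers (16) -0.0075.

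Of 8 subunits of the mTOR complexes, which hold the drug's target, none passed in SCA3 and 3 rose in wt mice, beside 11.5% of all genes that rose. After quantile normalization or centring on the array median 0 of the 8 rose in wt mice, beside 1189 and 959 of all 20473 probe sets. Of single arrays, 11 each ended the call of Rptor and 6 that of Rictor. The list had a median interaction of -0.09 and no unadjusted p under 0.05 by limma. Deptor, an inhibitory subunit, had the smallest p of them (interaction -0.31, 95% interval -0.63 to 0.01, adjusted p = 0.663). The 30 nutrient and growth factor inputs had a median of -0.08 and the 16 genes of output to translation 0.0089, also with no unadjusted p under 0.05. Among 11 FKBP immunophilins, the family that holds the drug's receptor, Fkbp14 had -0.64 (adjusted p = 0.536) and Fkbp7 -0.34 (adjusted p = 0.594).

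Lists on protein clearance followed the median of all genes. Of 44 autophagy genes 7 rose and 2 fell in SCA3 mice, beside 11% and 6.09% of all genes, and 8 rose in wt mice, beside 11.5%. The median interaction was -0.07. Centring each array on its median left 4 rises in SCA3 and 2 in wt mice, beside 1587 and 959 of all 20473 probe sets. The rises numbered 3 in SCA3 when replicate 2 or 5 of the treated or 4 of the placebo SCA3 arrays was left out, and in wt 2 without wt placebo replicate 3 and 13 without wt placebo replicate 1. Atg4c, a protease that processes LC3, rose by 0.49 in wt and differed by 0.15 in SCA3 mice (interaction -0.34, adjusted p = 0.633). The 33 lysosomal genes had a median of -0.07, led by the membrane protein gene Lamp2 at -0.44 (adjusted p = 0.518), and the 41 proteasome genes -0.04. Of 52 deubiquitinases, the family of ataxin-3, 5 had an unadjusted p under 0.05, all below 0, beside 7% of all genes. Usp25 rose by 0.32 in wt and differed by 0.0086 in SCA3 mice (interaction -0.31, adjusted p = 0.567). The 19 ataxin-3 partners and polyglutamine genes had -0.09. Syvn1, a ubiquitin ligase of the endoplasmic reticulum, rose by 0.47 in wt and differed by 0.11 in SCA3 mice (interaction -0.36, adjusted p = 0.593).

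Interactions of stress genes lay mostly below 0, as did those of all genes (7052 of 10454). Heat shock genes had a median interaction of -0.05, with 29 of 44 below 0. The unfolded protein response with ATF4 targets had -0.11, with 21 of 27 below 0. In each list 3 members had an unadjusted p under 0.05 by limma, all below 0. Of all genes 7% were below and 1.3% above at that threshold. Hspa1b, the inducible HSP70, had 8.27, 7.88, 7.76, 7.52 and 7.69 in SCA3 CCI-779 and 8.56, 8.62, 8.26, 8.51 and 8.60 in SCA3 placebo arrays. It had 8.97, 8.56, 8.61, 8.29 and 8.15 in wt CCI-779 and 8.64, 8.46, 9.04 and 8.40 in wt placebo arrays. Only the SCA3 groups came near to separating, with SCA3 CCI-779 replicate 1 just above 1 placebo array. Hspa1b fell by 0.69 in SCA3 mice (adjusted p = 0.00852) and differed by -0.12 in wt mice (interaction -0.57, adjusted p = 0.633).

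Of 38 genes of synaptic vesicles and release, 13 rose and 1 fell in SCA3 mice, beside 11% and 6.09% of all genes, and 12 rose in wt mice, beside 11.5%. The median interaction was -0.02. Rph3a, the Rab3 effector rabphilin, rose by 1.40 in SCA3 and by 1.10 in wt mice (interaction 0.30, 95% interval -0.06 to 0.66, adjusted p = 0.698). Slc32a1, the vesicular GABA transporter, rose by 0.51 in wt and differed by 0.16 in SCA3 mice (interaction -0.35, adjusted p = 0.539). Of 43 glutamate and GABA receptor and scaffold genes, 14 rose and 2 fell in SCA3 mice (11% and 6.09% of all genes), and 12 rose and 2 fell in wt mice (11.5% and 1.64% of all genes). After centring each array on its median, 7 rose and 4 fell in wt mice, beside 959 and 1163 of all 20473 probe sets. Beside Gabrg3 at 0.43, its relative Gabrg1 rose by 0.43 in wt and differed by -0.0013 in SCA3 mice (interaction -0.43, adjusted p = 0.554).

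Immediate early and neurotrophin genes had a median of -0.07 over 27 members, and Bdnf, the neurotrophin, fell by 0.99 in SCA3 and differed by -0.51 in wt mice (interaction -0.48, adjusted p = 0.730). The Bdnf interaction was -0.27 without SCA3 CCI-779 replicate 2 and -0.17 for the mean of its probe sets. Glucocorticoid and clock genes had -0.15 over 30 and striatal markers 0.02 over 18. Of 40 tested cytosolic ribosomal protein genes 15 rose in SCA3 mice, beside 11% of all genes (9 after centring on the array median). In wt mice 4 rose, beside 11.5% (10 without wt placebo replicate 1, 0 without wt CCI-779 replicate 4 or wt placebo replicate 4). Of the 40 genes, 28 had an interaction above 0, the largest count of this sign among the lists, though none had an unadjusted p under 0.05. Rpl4 rose by 0.30 in SCA3 and differed by 0.15 in wt mice (interaction 0.15, 95% interval -0.04 to 0.34, adjusted p = 0.720). Of 71 genes of oxidative phosphorylation 17 fell in SCA3 mice (9 without SCA3 placebo replicate 5), beside 6.09% of all genes. In wt mice 8 fell (2 without wt placebo replicate 2 or 4), beside 1.64%. After centring on the array median 35 fell in SCA3 and 23 in wt mice, beside 1961 and 1163 of all 20473 probe sets. Before centring those counts over all probe sets were 1013 and 433. The median interaction of the list was -0.03.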

How the data were processed

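Brain RNA of 19 arrays in 4 groups was analysed. The deposited values are linear intensities; the submitters' processing notes name GCRMA, without a version. Probe-level files were not used here. They were turned to log2 of the deposited intensities with no pseudocount. A model with 4 group means was fitted in limma 3.58.1 (R 4.3.3; lmFit, contrasts.fit, eBayes; 15 residual degrees of freedom) over the 20473 non-control probe sets with a mean of at least 4, and p-values, those of the 10454 genes included, were Benjamini-Hochberg adjusted over all of them, with a threshold of 0.05. Array values carry no counts, so the number of arrays limits the precision. Of the probe sets 34945 had 1 gene symbol, 932 several and 9160 none in the platform annotation, and 34741 were matched by Entrez ID; probe sets with several are unnamed. Named genes are the study's genes, the 12 genes with the smallest interaction p in each direction, the 5 strongest shared responses each way and the 3 list members with the smallest interaction p. The members and the 27 lists were chosen with earlier results of these data known. The scripts were tested on simulated data. One wt CCI-779 array carries no number in its label and is called replicate 1. Alternatives changed the filter, scaling, pseudocount, variance model, probe set rule, threshold, block, covariates and arrays.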

Additional observations from a re-analysis of the deposited data

Results flagged for a closer look

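In 38 of 480 sets of arrays examined (7.92%), the highest or lowest array of a group lay far from the rest of its group; the criterion takes about 1 in 20 such sets by chance. All values are log2 intensities, and no explanation was tested.

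Among the genes leading the interaction, the array that stood apart was SCA3 CCI-779 replicate 2 for Fubp3 (7.88, others 8.36 to 8.52), SCA3 CCI-779 replicate 1 for Haus3 (5.49, others 6.04 to 6.12) and Dhx36 (10.73, others 10.97 to 11.07), and SCA3 CCI-779 replicate 4 for Mcc (6.34, others 6.11 to 6.17). SCA3 placebo replicate 1 stood apart for Hadhb (12.39, others 12.50 to 12.53). Among wt arrays it was CCI-779 replicate 4 for Cep290 (5.94), CCI-779 replicate 2 for Gabrg3 (5.90, others 5.67 to 5.71) and placebo replicate 1 for Fam81a (10.23, others 10.59 to 10.67). Among the study's genes it was wt CCI-779 replicate 1 for Usp15 (7.66, others 8.07 to 8.19) and wt placebo replicate 1 for Prnp (13.97, others 14.08 to 14.09). Among shared responses it was SCA3 CCI-779 replicate 2 for Arhgef33 (5.20, others 5.93 to 6.15) and wt placebo replicate 3 for Atn1 (6.22, others 6.01 to 6.05).

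SCA3 CCI-779 replicate 4 was high for Slc32a1 (10.60), Slc3a2 (10.43), Acly (11.22) and Uqcr10 (10.94). In SCA3 CCI-779 replicate 1, Fkbp5 was high (9.66, others 8.38 to 8.62) and the Purkinje cell gene Ppp1r17 low (7.97, others 8.55 to 8.74). Cx3cr1 was high in SCA3 CCI-779 replicate 3 (8.48) and in SCA3 placebo replicate 1 (8.59). F5 was low in SCA3 CCI-779 replicate 5 (4.98) and high in SCA3 placebo replicate 4 (6.12), where Rps29 was low (15.23). SCA3 placebo replicate 5 was high for Hspa2 (9.03), Pdk4 (6.53) and Pcp4 (14.19), and SCA3 placebo replicate 2 low for Lamp2 (10.46) and Tek (5.63).

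Wt CCI-779 replicate 1 was high for Sqle (8.89), Psme4 (10.21) and Myrf (8.53), wt CCI-779 replicate 2 was low for the choroid plexus gene Otx2 (5.05, others 5.83 to 5.93), and wt CCI-779 replicate 3 was low for Psmb10 (8.89). Eif2ak3 was low in wt placebo replicate 3 (8.10) and Hlf in wt placebo replicate 1 (10.57). The GAPDH 3 prime minus 5 prime signal stood apart in SCA3 placebo replicate 4 (-0.47) and wt CCI-779 replicate 1 (0.28), and the actin signal in wt CCI-779 replicate 1 (2.55). Wt CCI-779 replicate 1 held 6 of the 38, more than any other array.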

How the results depend on the processing

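The interaction had 0 called probe sets and 0 called genes under all 34 alternatives, 15 of processing and 19 leaving out an array, by limma; the share at an unadjusted p under 0.05 lay between 4.50% and 10.3%, and the lowest adjusted p was 0.0658, with all non-control probe sets tested. The 24 leading genes kept their sign wherever they were tested, and 17 kept an unadjusted p under 0.05 throughout. They were picked by their p on these same arrays, so this is a description and no support. Settings that changed only the filter, variance model or threshold could not change a sign. Called probe sets for the drug in wt numbered 1584 with all probe sets tested, 4046 at an adjusted p under 0.1 and 770 with the GAPDH covariate. With the spike-in covariate both drug effects had 0. Treated and placebo arrays did not overlap in either covariate, in either genotype, so these fits separate drug and covariate poorly. The cause of these shifts was not tested. Without SCA3 CCI-779 replicates 2 and 5 the SCA3 count was 1203. Leaving out 1 array gave 1956 (without SCA3 CCI-779 replicate 2) to 4048 (without wt CCI-779 replicate 1) in SCA3, and 1343 (without wt placebo replicate 3) to 2717 (without wt placebo replicate 1) in wt.

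Signs turned for small interactions. Averaging a gene's probe sets gave -0.22 for Arhgef33, 0.042 for Wdfy3, 0.17 for Slc4a4, 0.17 for Rora and 0.21 for Pde10a, a drug effect of 0.015 for Camkk2 in SCA3 and one of -0.052 for Slc4a4 in wt. Usp15 gave -0.11 with array weights, -0.016 with the GAPDH covariate, -0.14 without the 3 arrays that stood apart and -0.043 without SCA3 CCI-779 replicates 2 and 5. Ppp1r1b gave -0.012 without the 3 arrays. Fam163b gave -0.24 and Rnf208 -0.074 without SCA3 CCI-779 replicates 2 and 5, and Zfp385a 0.0035 with a pseudocount of 16. Leaving out 1 array gave -0.053 to 0.12 for Usp15, -0.28 to 0.26 for Zfp385a, -0.081 to 0.33 for Arhgef33, -0.056 to 0.14 for Ninj1, -0.0083 to 0.23 for P2ry12 and -0.0098 to 0.15 for Camkk2.

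The labels do not say whether the replicate numbers pair the samples. The 24 same-numbered pairs across groups had deviations correlating at a median of 0.03 (-0.31 to 0.29), with 9 over 0.1. The 97 other pairs had a median of -0.0054. A low correlation cannot show that the samples were unpaired. With the replicate number as a block and the unnumbered array left out, the interaction had 0 calls, wt had 1384, and the interactions of Usp15 and Zfp385a were -0.011 and 0.055. The number of arrays limits all of these values. The 24564 probe sets with a mean under 4 were the dimmest and were tested only in the fit on all non-control probe sets.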

Other observations

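Some genes had large interactions with wide intervals. Slc17a7, the vesicular glutamate transporter of cortical neurons, had 1.10 with a 95% interval of -0.19 to 2.40 (adjusted p = 0.692), and Nr1d1, a repressor of the circadian clock, had 0.89 with -0.22 to 2.01 (adjusted p = 0.705). Without SCA3 CCI-779 replicate 2 they were 0.73 for Slc17a7 and 0.54 for Nr1d1. Without replicates 2 and 5 of that group they were 0.14 for Slc17a7 and 0.038 for Nr1d1, and 0.0066 and 0.020 when wt CCI-779 replicate 1 was left out as well. Shmt2, which makes glycine in mitochondria, had -0.88 with -1.61 to -0.15 (adjusted p = 0.625), and the phosphatase gene Dusp1 had -0.71 with -1.73 to 0.30 (adjusted p = 0.742). The mean of the probe sets of Shmt2 gave -0.27, and Dusp1 had -0.43 without wt placebo replicate 3. Among the leading probe sets, the 1 without a single gene symbol fell by 1.01 in wt mice and differed by -0.07 in SCA3 mice.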
